A study of Mus musculus with 8 samples.

Results

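Cytosolic ribosomal protein genes were taken from a time series of the suprachiasmatic nucleus (SCN), the hypothalamic pacemaker of C57/BL6 mice. They were found by name among the sense-strand genes: symbols that begin with Rpl or Rps and a digit, with Rplp0, Rplp1, Rplp2 and Rpsa, and without pseudogenes (-ps) and the S6 kinases (Rps6k). Of 169 symbols with such a name, 75 were pseudogenes and 10 were kinases. Of the 84 left, Rpl3l and Rpl39l had too few reads, and 82 genes with at least 10 reads in at least 2 libraries were kept, of 20741 genes in the table and 15217 past the same minimum. They comprised 48 large subunit (Rpl) and 34 small subunit (Rps) symbols on 19 chromosomes, 4 of them on the X chromosome. The read minimum is part of the choice, so all 82 were tested. Rps19bp1, a binding protein of Rps19, only shares the name.

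The study has 8 libraries of polyadenylated RNA, 1 every 6 h for 2 days, and each holds equal amounts of RNA from 3 mice. The animals, for which the labels give no mutation, agent, age or sex, had been kept for 3 weeks in 12 h of light and 12 h of dark and were then moved to darkness. Library titles run from 22 to 64 h, so each circadian time (CT, hours of the internal day) has 2 libraries: CT4 (28 and 52 h), CT10 (34 and 58 h), CT16 (40 and 64 h) and CT22 (22 and 46 h). The submitters state no replicates, and the grouping of libraries 24 h apart is made here, so p-values measure spread between pooled libraries and not between mice. The labels give CT18 as the start of collection, while the first title is CT22.

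A ribosome has a small subunit, which reads the message, and a large subunit, which joins amino acids, and most of their proteins are present once in each. Messages of these proteins are short and abundant. Most begin with a run of pyrimidines, the terminal oligopyrimidine (TOP) stretch, through which growth signals control their translation. Because the proteins are long-lived, message levels of this family need not follow protein levels.

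The stretch was looked for at RefSeq starts on GRCm38.p6, as a C followed by at least 5 bases that are each C or T on the gene's own strand, beginning within 25 bases of a listed start. It was found in 45 of the 60 members that have an entry (75%), against 42.2% of 10475 other tested genes and 41.2% of all 27025 genes in the table. A C with 4 further pyrimidines exactly at a listed start was found in 13 members (21.7%), against 2.93% of the other tested genes. A match is a description of these letters and not a test of the stretch. The following 30-base windows are shown for members described later. Capitals mark the stretch, and each line runs 5′ to 3′. Counted from the listed start, the stretch begins at −17 in Rpl4 (13 bases) and at −16 in Rpl13 (10 bases). In these genes it ends upstream of that start. In the other windows it begins at −4 to −2, so none of those shown begins exactly at a listed start.
Rpl28, chr7:4792955-4792984, + strand: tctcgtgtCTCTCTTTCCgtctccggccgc
Rpl4, chr9:64173362-64173391, + strand: tgacaagtCTTTCCTTTTCCTgtgggagca
Rpl27a, chr7:109519183-109519212, + strand: ttcgtgagCTCCTCCCTTTTCCCTTTCTgc
Rpl13, chr8:123102326-123102355, + strand: tgacgtcaCTTCCCTTTCgcctgattttga
Rps10, chr17:27635226-27635255, − strand: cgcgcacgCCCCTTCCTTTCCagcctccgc
Rps27, chr3:90213629-90213658, − strand: cgctttcgCTCCTTTCCggcggtgacgacc
Rps24, chr14:24490668-24490697, + strand: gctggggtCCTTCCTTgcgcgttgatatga
Rplp2, chr7:141447639-141447668, + strand: gtcagcgtCTTCCTTTCgccgccggacgcc

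Sense-strand gene reads totalled 11123610 to 11131890 per library, and members took from 1.58% of these at 46 h to 2.10% at 34 h. From totals this close, depth appears to have been equalised before deposit. SCN markers were present in every library: their 10 tested genes, among them Avp, Vip and Lhx1, summed to 555 to 1102 CPM (counts scaled to a common library total). Markers of oligodendrocytes and meninges varied more. The 12 oligodendrocyte genes summed to 5155 CPM at 28 h and 16089 at 64 h, with 15378 at 34 h, and the 8 meningeal genes to 110 CPM at 28 h and 308 to 604 elsewhere. The library at 34 h was highest for microglial genes (320 CPM, 228 to 291 elsewhere). In bulk tissue, fewer cells of a type and less RNA per cell cannot be told apart.

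No ribosomal protein gene passed the test for a 24-h rhythm. By edgeR's quasi-likelihood test with Benjamini-Hochberg adjustment over 15217 genes, 0 of 82 members were called, where 0.112% of all genes were (17 genes). At an unadjusted p under 0.05 there were 4 members, Rpl28, Rpl3 and Rpl36a among them, which is 4.88% of members against 8.6% of all genes. DESeq2 called 0 members as well, with 98 genes called in all. The median fitted peak-to-trough difference of members was 0.23 on the log2 scale, below the median of 0.29 for all genes. These sets were not matched for level. Against genes with a mean of at least 50 CPM, the members' median SD over libraries was higher, 0.17 against 0.13. Fitted peaks fell between CT10 and CT16 for 51 members, between CT4 and CT10 for 18, between CT16 and CT22 for 9 and between CT22 and CT4 for 4.

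Rpl28, a large subunit protein, measured 95.5 CPM at 22 h, 84.8 at 28 h, 135 at 34 h, 85.2 at 40 h, 86.9 at 46 h, 89.3 at 52 h, 110 at 58 h and 105 at 64 h. Both CT10 libraries were highest, but they differed from each other by more than the other 6 did among themselves (adjusted p = 0.558 by edgeR). Rpl3, which lies at the catalytic centre of the large subunit, ran from 656 CPM at 46 h to 870 at 34 h, with 797 at 28 h and 790 at 58 h (adjusted p = 0.571 by edgeR). In Rpl3 the lower CT4 library, 709 CPM at 52 h, lay below the 727 CPM of the CT16 library at 40 h, so day and night overlapped.

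Day and night were set against each other as CT4 and CT10 against CT16 and CT22. The median member was 1.04 times as high by day (log2 0.06), with 59 of 82 members higher by day; over all genes the median was −0.01 and 48.0% were higher. By edgeR 0 members passed, against 0.105% of all genes, and 5 members, Rpl3, Rpl4 and Rpl7 among them, had an unadjusted p under 0.05 (7.72% of all genes). DESeq2 called 0 members, with 56 genes called in all. Without the 34 h library the count of members higher by day was 41 of 82 and the median was 0.00224. Leaving out any other single library gave 48 to 78 members, with 48 without the 40 h library and 78 without the 22 h library.

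In 3 members, Rpl4, Rpl6 and Rpl7, all 4 day libraries lay above all 4 night libraries; 1.91% of all genes did so. All 3 encode large subunit proteins. Rpl4, whose loop lines the exit tunnel of the nascent chain, measured 630 CPM at 28 h, 674 at 34 h, 603 at 52 h and 607 at 58 h by day. Its night values were 516 at 22 h, 580 at 40 h, 569 at 46 h and 556 at 64 h. The day-night difference was 0.18 ± 0.08 (log2, SE), a ratio of 1.13, with an adjusted p of 0.618 by edgeR. Rpl7 reached 376 and 383 CPM at CT4 and 425 and 357 at CT10, against 331 to 349 at night (adjusted p = 0.627 by edgeR). In the authors' deposited table of a JTK rhythm test, Rpl4 is the only member with an adjusted p under 0.05 (0.0220, q = 0.978), where 3.36% of genes past the read minimum have one; 60 members are listed at 1.

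**Figure D1:**
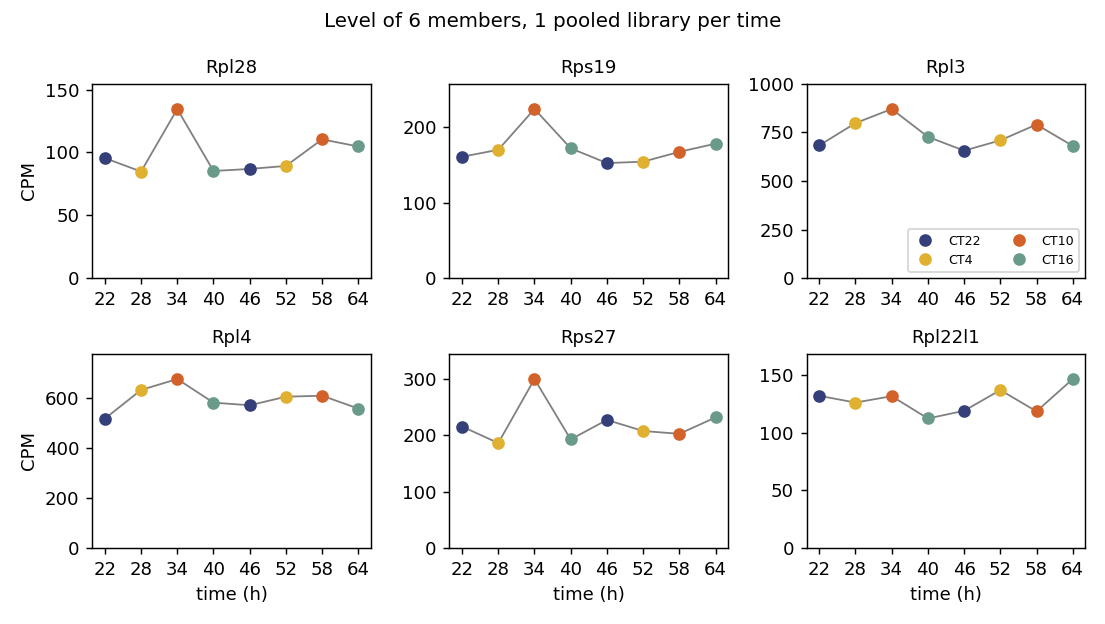
Level (CPM, y axis from 0) against time of collection (h, x axis) for 6 members; each point is 1 pooled library, coloured by circadian time and joined in time order. Rpl28 was highest in both CT10 libraries, Rps19 was highest at 34 h, Rpl4 was higher in its 4 day libraries, Rps27 stood out at 34 h, and Rpl22l1 stayed between 112 and 146 CPM.

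The dusk-dawn comparison sets CT10 and CT16 against CT22 and CT4. Here 74 of 82 members were higher at dusk, with a median ratio of 1.09 (log2 0.12); the median of all genes was 0.01 and 51.4% were higher. The difference of the members' median has a standard error of 0.09, taken from the spread between libraries of 1 circadian time. By edgeR 0 members passed, where 0.0197% of all genes did, and 4 members, Rpl28, Rps19 and Rpl36a among them, had an unadjusted p under 0.05 (7.84% of all genes). DESeq2 called 0 members and 34 genes. No member had all 4 dusk libraries above all 4 dawn libraries, against 1.66% of all genes. Without the 34 h library the median was 0.04, with 56 of 82 members higher. With the oligodendrocyte score of each library as a term it was 0.02, with 51 members higher; the part of those cells in the shift was not tested beyond that fit.

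Rps19, a small subunit protein whose loss causes Diamond-Blackfan anaemia in people, illustrates the pattern. It measured 224 CPM at 34 h, and its other libraries lay between 152 CPM at 46 h and 178 at 64 h. The dusk-dawn difference was 0.22 ± 0.09 (log2, SE), with an adjusted p of 0.604 by edgeR. Rps3, at the entry of the message channel, was 457 CPM at 34 h and 326 to 381 elsewhere (adjusted p = 0.664 by edgeR). In both of these small subunit genes the second CT10 library, at 58 h, lay inside the range of the remaining libraries.

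Libraries of the same circadian time differed. Against each member's own mean, the median member stood at 0.25 (log2) at 34 h and 0.09 at 64 h. It stood at −0.00253 at 22 h, −0.00839 at 58 h, −0.04 at 28 h, −0.08 at 52 h and −0.13 at both 40 and 46 h. Thus the CT10 libraries lay 0.25 and −0.00839 from the mean, and the CT16 libraries −0.13 and 0.09. At 34 h 81 of 82 members were above their own mean and 61 had their highest level; the median member was 1.21 times its mean over the other 7 libraries, and the range was 0.88 to 1.51. Over all genes, 13.9% were highest at 34 h and 52.4% were above their mean. Rpl7l1, a nucleolar relative of Rpl7, was the exception and had its lowest level there. Both subunits took part alike, with medians of 0.25 (large) and 0.24 (small) at 34 h, as did members with a snoRNA gene in an intron (30 members, 0.25) and those without (52 members, 0.25).

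Rps28, Rpl28 and Rps27 stood furthest out at 34 h. Rps28 reached 100 CPM there and 55.1 to 83.9 elsewhere. Rps27, a zinc finger protein of the small subunit, reached 300 CPM at 34 h, with 203 at 58 h and a range of 186 to 232 over the other 7 libraries. At the other end, Rps26 and Rps15a were close to their means at 34 h. The members' spread over libraries, as the SD of log2 CPM, had a median of 0.17, from 0.08 in Rpl9 and Rpl15 to 0.40 in Rpl36. All genes with a mean of at least 50 CPM had a median of 0.13.

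**Figure D2:**
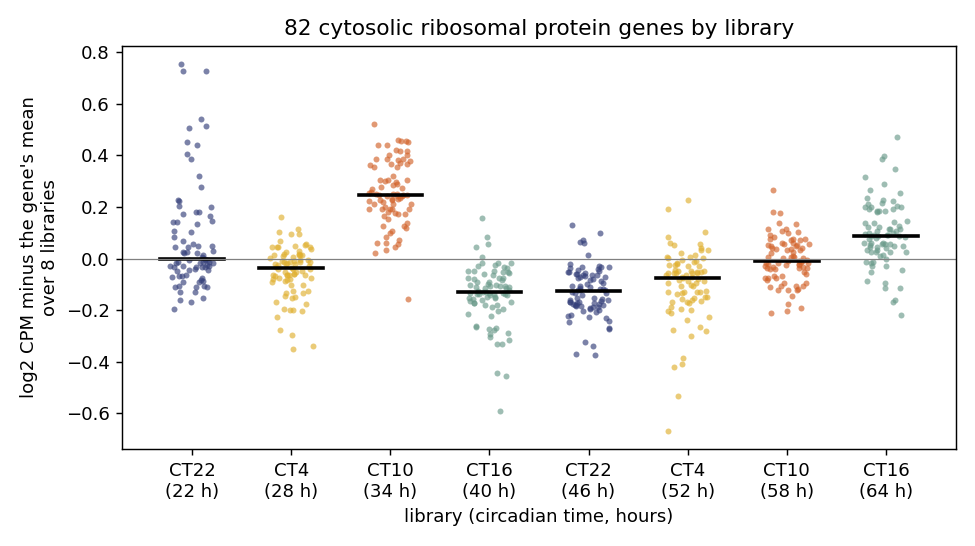
Each point is 1 of the 82 members; the y axis is log2 CPM minus that gene's mean over the 8 libraries, the x axis the library in time order, and the black bar the median. The 34 h library stands at 0.25 and 12 members have their highest level at 22 h, where the upper points reach 0.75. Of all genes, 10.975% have their highest level at 22 h.

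Neighbouring gene groups were described the same way; their lists were written with earlier results of these data known. By edgeR's 24-h test 0 genes passed among 10 of translation elongation, 34 of initiation, 51 of ribosome biogenesis, 75 mitochondrial ribosomal proteins, 19 that control TOP messages, 33 of the respiratory chain and 10 snoRNA hosts. Among 15 core clock genes 5 passed, Dbp and Per1 with the lowest p. At 34 h the median was 0.16 for elongation factors, 0.25 for the respiratory chain, 0.12 for mitochondrial ribosomal proteins, 0.15 for snoRNA hosts, 0.07 for biogenesis and −0.07 for the control of TOP messages. The respiratory chain list, also of short abundant messages, thus had the same median at 34 h as the members. Transcripts of members had a median length of 740 bases (GENCODE), against 2812 for all tested genes. The correlation of the deviation at 34 h with log length was −0.24 over 14790 genes and −0.14 over the 82 members. Both are descriptions over genes of 1 library.

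The 12-h contrast sets CT4 and CT16 against CT10 and CT22. The median member was at −0.08 (log2) with 10 of 82 higher, and over all genes the median was −0.01. By edgeR 0 members and 0% of all genes passed, and 4 members, Rpl13, Rps2, Rpl28 and Rpl27a, had an unadjusted p under 0.05 (7.47% of all genes). DESeq2 called 0 members and 8 genes. Without both the 22 h and the 34 h library the median turned to 0.03 with 55 members higher. When no filter on low counts was used, Rpl13 and Rps2 passed, with adjusted p of 0.00632 and 0.00958 by edgeR. Many other genes passed in that fit too, and their number is given in the closing section. With the filter, leaving out 1 library in turn gave −0.59 to −0.11 (log2) for Rpl13 and −0.57 to −0.08 for Rps2.

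The second cycle against the first gave a median of −0.06, with 9 members higher in the second, against 0.01 for all genes. By edgeR 0 members and 0% of all genes passed; only Rps2 had an unadjusted p under 0.05, where 3.57% of all genes did. DESeq2 called 0 members and 0 genes. Without both the 22 h and the 34 h library this median was 0.04, with 56 members higher.

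Rpl13, Rps2 and Rpl27a, with low p in these contrasts, had their highest level at 22 h. Rpl13, a large subunit protein, was 191 CPM at 22 h, 99.9 at 28 h, 129 at 34 h, 83.0 at 40 h, 99.6 at 46 h, 102 at 52 h, 110 at 58 h and 117 at 64 h. Rps2, a small subunit protein at the message entry site, was 268 CPM at 22 h and 122 to 176 elsewhere, with 138 in the other CT22 library. Rpl36 was 71.3 CPM at 22 h and 28.5 to 54.7 elsewhere. Rplp1, of the acidic stalk that recruits elongation factors, was 238 CPM at 22 h, 232 at 64 h and 129 to 189 elsewhere. Rplp2, its stalk partner, was 127 at 22 h and 68.6 to 102 elsewhere, while Rplp0, the stalk base, was 177 at 22 h and was highest at 34 h with 211. In these genes except Rplp0, the 22 h library was the highest of the 8 and the 46 h library, of the same circadian time, was among the lower ones.

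Of the 82 members, 12 had their highest level at 22 h. Over all genes 10.975% did so, and the difference between these shares was not tested. The 12 members had a median transcript GC content of 56.5%, against 50.7% for the other 70 members. Across the 82 members, the deviation at 22 h correlated with transcript GC content at r = 0.41, and at 52 h at r = −0.55; over 14790 genes the values were 0.18 and −0.19. These are descriptions over genes of 1 library each. The part of GC content in the levels was not tested beyond a fit with a GC offset, which called 0 members.

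Reads along the genes showed where the 22 h library differed. In Rps2 (mm9 chr17:24855057-24858886, + strand) the exon at chr17:24857218-24857397, of 180 bases, had 887 reads at 22 h and 4 to 86 in the other libraries. The junction that leaves this exon, chr17:24857398-24857478, had 444 reads at 22 h, 7 at 28 h, 22 at 34 h, 0 at 40 h, 15 at 46 h, 4 at 52 h, 23 at 58 h and 41 at 64 h. The next junction, chr17:24857677-24857913, had 493 at 22 h and 281 to 380 elsewhere. The last, chr17:24858660-24858747, had 404 at 22 h, the lowest of the 8, and 459 to 634 elsewhere. Rps2 reads were shared with the overlapping symbol Gm10653 in these tables. The exon that stood apart holds the start of the protein and has a GC content of 71.7%. The 92-base exon before the last junction has 50%, and its reads ranged from 693 to 1012. Both are shown from GENCODE (GRCm38), matched to the deposited exons by length, the first with the leading 120 coding bases and the start codon in capitals.
Rps2 first coding exon: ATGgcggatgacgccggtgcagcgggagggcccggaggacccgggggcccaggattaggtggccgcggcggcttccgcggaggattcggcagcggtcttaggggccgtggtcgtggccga
Rps2 exon of 92 bases: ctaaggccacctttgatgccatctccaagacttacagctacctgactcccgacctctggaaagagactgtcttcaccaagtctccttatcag

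In Rpl13, too, the distance of the 22 h library from the others differed along the gene. Its junction chr8:125626887-125627082 had 457 reads at 22 h and 75 to 150 elsewhere, and chr8:125626663-125626744 had 363 against 74 to 257. The 2 downstream junctions had 554 and 652 at 22 h, against 378 to 537 and 499 to 641. A little used junction further upstream, chr8:125626346-125626552, had 6 reads at 22 h and 0 to 39 elsewhere. Of 285 member junctions with a mean of at least 50 reads, 9 had a highest library at 2 or more times the median library. In 8 of these the highest library was that of 22 h, in Rps2, Rpl13, Rps10, Rpl27a and Rpl8. The 9th was in Rps12, at 64 h. Junctions of other genes were not counted this way, so the count does not set members apart from them. In Rps10, which lies on the − strand, the order along the gene was the reverse. Its junction chr17:27771189-27771270, nearer the 5′ end, had 561 reads at 22 h against 422 to 599, and the next, chr17:27769302-27771016, had 365 against 63 to 253. In Rpl27a the 2 upstream junctions had 227 and 437 reads at 22 h against 39 to 212 and 92 to 279, and the third had 551 against 410 to 586.

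**Figure D3:**
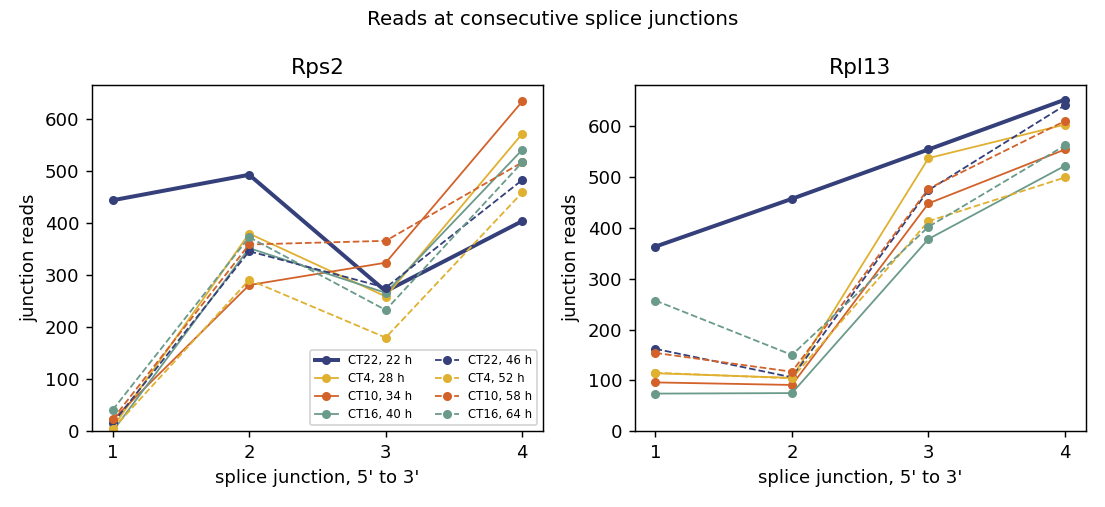
Reads (y axis from 0, not scaled) at consecutive splice junctions of Rps2 and Rpl13 (x axis, 5′ to 3′, junctions with at least 400 reads in all); each line is 1 library, solid for the first cycle and dashed for the second. The 22 h library (thick) has 444 reads at the first Rps2 junction shown against 0 to 41, and is the lowest of the 8 at the last, with 404. In Rpl13 it is the highest at all 4 junctions shown, with 457 against 75 to 150 at the second and 652 against 499 to 641 at the last.

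Reads at the start and end of the genes were then compared over the family. In 77 members with at least 2 well-used junctions, the first and the last junction were followed across libraries. At the first, the median deviation was 0.28 (log2) at 34 h, 0.24 at 64 h, 0.08 at 22 h and −0.30 at 40 h. At the last it stayed between −0.04 and 0.04 in all 8 libraries. Junction counts were scaled by the library sizes of the genes. Their own totals were less equal, from 3196136 at 34 h to 3437120 at 22 h, so the medians at both ends depend on that scaling. The median SD over libraries was 0.28 at the first and 0.16 at the last, and the first had the larger SD in 64 of 77 members. The first junction was highest at 34 h in 31 members and the last in 28, and at 64 h in 22 and 7. Other genes were not compared this way, so the contrast is not shown to be particular to this family. Median reads per library were alike, 434.5 and 460. The dusk-dawn difference of the median member was 0.10 at the first junction, with 57 of 77 higher, and 0.02 at the last, with 46 higher. The day-night difference was 0.01 at the first (39 higher) and 0.03 at the last (41 higher).

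Rps24 and Rpl22l1 give examples with deep junctions. The first junction of Rps24, chr14:25311038-25311128, had 1369 reads at 34 h, 1183 at 64 h and 628 at 40 h, the extremes of the 8 libraries, and its last, chr14:25314672-25314996, had 722 to 867. In Rpl22l1 the first, chr3:28705515-28705658, had 688 reads at 40 h and 1159 at 34 h, and the second, chr3:28705781-28706108, had 511 to 619. The libraries with high 5′ counts were the same in both genes, those of 34 and 64 h.

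**Figure D4:**
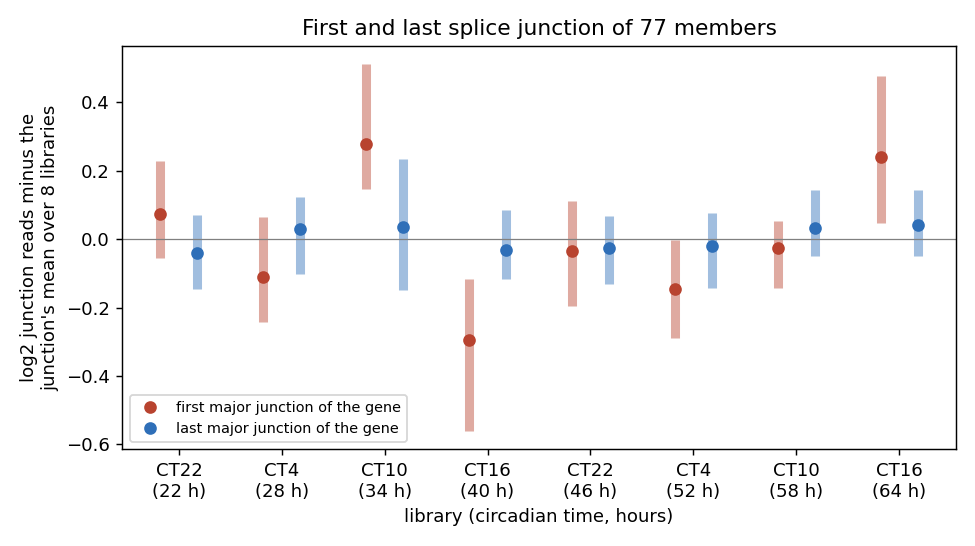
Median (point) and middle 50% (bar) over 77 members of log2 junction reads minus that junction's mean over the 8 libraries (y axis), by library (x axis), for the first and last well-used junction of each gene. Reads are scaled by the library sizes of the genes. First junctions range from −0.30 at 40 h to 0.28 at 34 h, and last junctions stay between −0.04 and 0.04.

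By edgeR's 24-h test on single junctions, 0 of 351 tested member junctions passed, against 0.0179% of 78212, and 19 had an unadjusted p under 0.05, where 5% of all did. The lowest p was that of the Rps2 junction described above (adjusted p = 0.323). For intron reads summed per gene, 0 of 75 members passed, against 0.279% of 12191 genes, and 8 had an unadjusted p under 0.05 (9.42% of all). Intron reads of members had a day-night median of 0.12 with 51 of 75 higher, and a dusk-dawn median of 0.17 with 52 higher; the medians over all genes with tested introns were −0.02 and −0.07. Rpsa, the laminin receptor homologue of the small subunit, had 249 intron reads at 34 h and 81 to 137 elsewhere (adjusted p = 0.360 by edgeR). Reads on the opposite strand were scarce: 26 of 78 members could be tested, 0 passed by edgeR, where 0% of 3693 genes did, and 0 had an unadjusted p under 0.05 (3.47% of all).

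Levels between members were compared per length, as CPM per kb of a GENCODE transcript. Over 81 members the median was 259, the 10th percentile was 100.2 and the 90th was 547, and 55 members lay within 2-fold of the median. Large subunit members had a median of 233 and small subunit members of 268. Rpl9 (800 CPM per kb), Rpl10 (651), Rps27 (639), Rpl21 (636) and Rps15 (592) were highest, and among the 5 the ranges over libraries overlap except between Rpl9 and Rps15. The lowest were Rps19bp1 (9.26), Rps4y2 (20.7), Rps27l (30.3), Rps20 (31.3) and Rpl7l1 (39.5). Ranges over libraries of neighbours in this low order overlap except those of Rps19bp1 and Rps4y2. The level of Rps20 depends on its listed transcript of 3706 bases, the longest of the members. Rps4y2 is called Rps4l in GENCODE. The row named Rpl24 carries the identifier of Zbtb11 and spans both genes, so no level per kb is given; it measured 260 to 320 CPM.

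**Figure D5:**
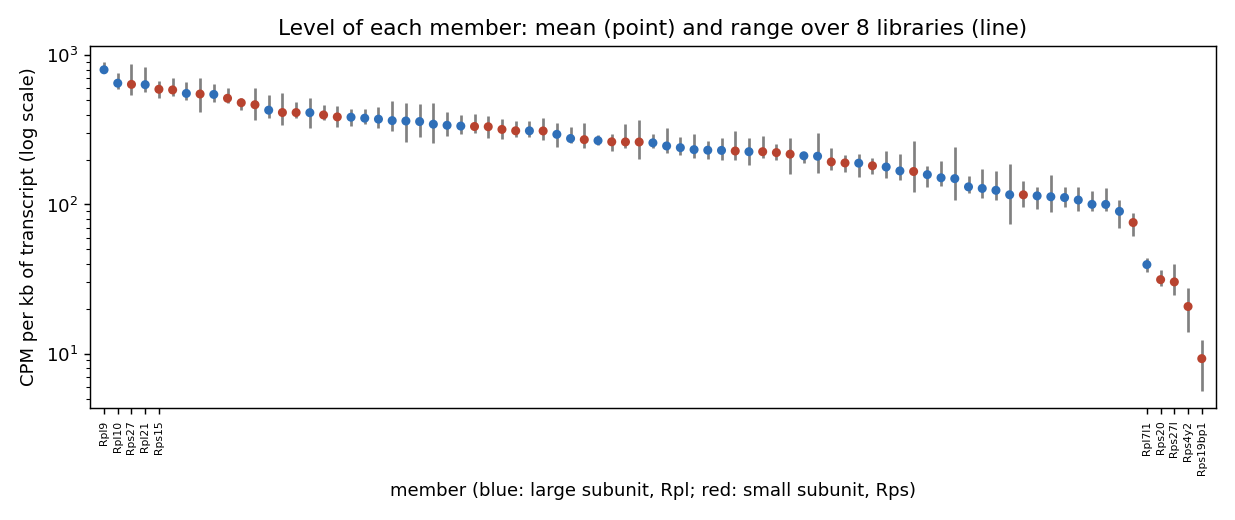
Mean CPM per kb of transcript (point, log y axis) and range over the 8 libraries (line) for 81 members in order of level (x axis, the 5 highest and 5 lowest named). Most lie between 100.2 and 547; Rps20 and 4 relatives or name-alikes of core members lie below 40.

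Relatives of core members were lower or similar, as CPM in all libraries. Rps27 was 14.6 times Rps27l (10.9 to 18.6 over libraries), Rpl7 was 7.0 times Rpl7l1 (5.91 to 9.16) and Rpl36a was 1.54 times Rpl36al (1.43 to 1.72). Rps4x, on the X chromosome, was 19.9 times Rps4y2. Rpl22l1 was the exception: Rpl22 was 0.70 times its relative (0.58 to 0.83), and in all 8 libraries Rpl22l1 had more reads. Per kb of transcript the order was the same, 189 for Rpl22 and 231 for Rpl22l1. Reads per well-used junction set them further apart, at 13.4 CPM for Rpl22 and 65.6 for Rpl22l1. For Rpl36a and Rpl36al that measure gave 31.9 and 2.92 CPM, so the size of these ratios depends on the measure. Over time Rpl22l1 ran from 112 CPM at 40 h to 146 at 64 h, both at CT16, with a fitted peak 1.02 times the trough (adjusted p = 0.996 by edgeR). Rps27a, which is made fused to ubiquitin, measured 338 to 449 CPM.

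Alternative splicing was described where a less used junction took at least 5% of at least 100 reads at a shared splice site, which held for 13 members. Rps24 had the most such reads. Its protein differs at the C-terminus by small exons near the end of the message, and these are shown from GENCODE with the stop codon in capitals.
Rps24 18-base exon: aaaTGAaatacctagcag
Rps24 20-base exon: TGAgtggagattggatacag
From the donor at mm9 chr14:25312716, 8.39% of 7746 reads went to the 18-base exon and 2.07% skipped both small exons. The share of the 18-base exon was 5.98% at 22 h (95% Wilson interval 4.67 to 7.62), 10.1% at 28 h (8.38 to 12.1), 8.25% at 34 h (6.69 to 10.1) and 6.43% at 40 h (5.04 to 8.17). It was 12.0% at 46 h (10.2 to 14.2), 9.41% at 52 h (7.72 to 11.4), 6.23% at 58 h (4.79 to 8.06) and 8.38% at 64 h (6.81 to 10.3). The lowest and highest shares both came from CT22 libraries, and their intervals do not overlap. Intervals cover counting error only.

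In Rps28, a less used donor for the acceptor at chr17:33960062 took 31.0% of 277 reads at 34 h (25.9 to 36.7). It took 21.6 to 23.3% in the other first-cycle libraries, whose intervals overlap that of 34 h. In the second cycle it took 16.2 to 17.7%, with intervals below that of 34 h. Rpl22 had a junction with 6.61% of 1619 reads at its site, from 2.56% at 52 h to 9.29% at 40 h, and these 8 intervals overlap. In Rpl13a the less used junction took 53.4% of 73 reads at 22 h (42.1 to 64.4) and 12.8% of 86 reads at 46 h (7.29 to 21.5), 2 libraries of the same circadian time. The highest share was 60.0% of 20 reads at 40 h (38.7 to 78.1). The lowest was 9.56% of 136 reads at 64 h (5.67 to 15.7), also at CT16. Over all libraries the share of this junction was 24.4% of 463 reads. The sites of Rpl35a, Rpl21, Rpl38 and Rpl15 had 129 to 197 reads over the 8 libraries together.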

How the data were processed

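The submitters' processing notes name STAR 2.3.0e and mm9. The values the authors deposited are unscaled counts for genes, introns, exons and junctions. Totals of gene, intron and exon counts are nearly equal between libraries, by a step not given in the sources used here. An adjusted p-value and q-value from a JTK rhythm test stand in the authors' gene table, per the file headers. The members and gene lists were chosen with earlier results of these data known. Counts were tested with edgeR 4.0.16 in R 4.3.3 (quasi-likelihood F test, TMM scaling, at least 10 reads in at least 2 libraries, Benjamini-Hochberg at 0.05) in a model with a day-night and a dusk-dawn term, tested together as a 24-h rhythm; a 12-h and a cycle term were added in turn. Intron, junction and antisense counts used the same library sizes. Deviations are log2 CPM with a prior count of 2. Well-used junctions had at least 25% of the reads of the gene's most used one. Levels per kb used 1 principal GENCODE vM21 transcript per gene in place of the planned exon union. Named genes were members passing a test or the 5 with the lowest p, the 5 highest and lowest per kb, the 5 with the largest SD, relatives of core members, members with a minor junction and up to 2 of each other list; others were named after their values were seen. DESeq2 1.42.0, other scalings, no filter, left-out libraries and covariates were alternatives. The fit was also run on simulated counts, and the outcome is not given here. Some of the genes this rule names are not reported here.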

Additional observations from a re-analysis of the deposited data

How the results depend on the processing

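No member was called under any alternative of the 24-h, day-night, dusk-dawn and cycle tests: other scaling, no filter, DESeq2, each library left out, the oligodendrocyte score, the GC offset or, in the first 3 of these tests, the cycle as a block. In the 12-h contrast 2 members passed without the filter on low counts and 0 under the others. The labels give no replicate numbers; the cycle as a replicate block, by own numbering, gave a day-night median of 0.06 and a dusk-dawn median of 0.12, and called 21 genes in the 24-h test in place of 17. Without the filter 362 genes were called there and with DESeq2 98; leaving out 1 library gave 7 to 43. In the day-night, dusk-dawn, 12-h and cycle tests, 137, 239, 169 and 2 genes were called without the filter, and leaving out 1 library gave 4 to 28, 3 to 60, 0 to 33 and 0 to 2. The members' dusk-dawn median was 0.021 with the oligodendrocyte score. Leaving out each library in turn gave medians of 0.00224 to 0.117 (day-night), 0.04 to 0.18 (dusk-dawn), −0.15 to −0.02 (12-h) and −0.15 to −0.00410 (cycle). Without both the 22 h and 34 h libraries, an alternative chosen after seeing the data like the GC offset, the 12-h median was 0.035 and the cycle median 0.037. The causes were not tested. Members with a minor junction numbered 26 at a minimum of 1% and 6 at 10%. Of the 10 highest members per kb, 7 were also among the 10 highest by junction reads, and of the 10 lowest 5 were shared (77 members); Rps20 ranked 64 by junction reads. With 2 libraries a time, the members' median differences have a standard error of 0.09, and no test of them was made.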
